A study of Mus musculus with 24 samples.

Results

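Molecular chaperones keep proteins folded, and the genes measured here encode the heat shock proteins of the HSP70, HSP90, HSP110, HSP60 and small heat shock protein families, the J-domain partners of HSP70 (Dnaja, Dnajb and Dnajc genes), the protein disulfide isomerases (Pdia genes) and 4 regulators or targets of the unfolded protein response. The genes were chosen by name: symbols starting with Hspa, Hspb, Hspd, Hspe, Hsph, Hsp90, Dnaja, Dnajb, Dnajc or Pdia, and Calr, Canx, Ddit3, Atf4, Xbp1 and Herpud1. The rule uses names alone. Of the 24046 probes on the arrays, 64 probes named 57 such genes, and all 64 lay above background, with a detection score over 0.95, on at least 3 arrays. They stand among 9605 named genes on 13544 probes that were tested. Hspa1a, Hspa1b, Hspa12a, Hspa13, Hspa14, Hsp90ab1, Hspb6, Dnaja1, Dnajb11, Dnajc3, Calr and Canx were not analysed here.

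HSP70 proteins bind exposed hydrophobic stretches of unfolded proteins, J-domain proteins deliver these clients and start the ATP cycle, and HSP110 proteins and other exchange factors reset it. In the cytosol, heat shock factor 1 raises many of these genes when unfolded proteins build up. In the endoplasmic reticulum (ER), where secreted proteins such as surfactant proteins and antibodies are folded, the unfolded protein response does so through the transcription factors ATF6, XBP1 and ATF4.

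Whole lungs of male C57BL/6 mice aged 6-8 weeks were profiled, from wild type animals and from Rag-1 null animals, which lack mature T and B cells. In each of these 2 genotypes, control lungs were compared with lungs collected on day 1, 4 or 10 of the response to lipopolysaccharide (LPS), a bacterial endotoxin, which gives 8 groups of 3 arrays. The sources used here do not give the route, the dose or how many animals made up a sample. The p-values therefore reflect the spread among arrays of a group, part of which may be technical. The series title points to regulatory T cells in the resolution of injury, and T and B cells are what the Rag-1 null host does not make.

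Each array was tied to its sample by its values, since the sample titles in the scanner table pointed elsewhere for 22 of the 24. Under this assignment the summed signal of 4 T cell genes was 136 to 320 on the 12 wild type arrays and 80 to 86 on the 12 Rag-1 null arrays. Per array, 9517 to 12125 probes exceeded background. The correlation between replicates over probes was 0.966 to 0.992 in 7 groups, but 0.858 to 0.969 among the wild type day 1 arrays, where replicate 1 stood apart from the other two. Wild type control replicate 3 stood apart for the chaperones: 11 of the 57 genes (19.3%), Hsph1, Dnajb1, Hsp90aa1, Hspb1 and Hspa8 among them, lay over 0.5 above the mean of the other two control arrays, against 3.69% of all genes. Markers of alveolar type 2 cells were above background in every group, as were those of endothelium and ciliated airway except Kdr and Dnah5, which were below it on all arrays of some groups. Values below are normalized log2 signals, differences are log2 differences ± limma's standard error for groups of 3, and a gene passed at a Benjamini-Hochberg adjusted p under 0.05 over all probes tested. For a gene with several probes the brightest probe is given.

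In wild type lung at day 1, 24 of the 57 genes passed (42.1%, 9 higher and 15 lower), where 43.5% of all genes tested did. Across all genes 19.6% were higher and 23.9% lower. At day 4, 11 passed (19.3%, 3 higher and 8 lower), against 24.9% of all genes, and at day 10, 3 passed (5.26%, against 2.03%). In Rag-1 null lung 5 genes passed at day 1 (8.77%, against 19.8% of all genes), 11 at day 4 (19.3%, against 30.8%) and 1 at day 10 (1.75%, against 10.3%). The share of chaperone genes that passed was thus near or below that of all genes at days 1 and 4 in both genotypes. The median difference of the 57 genes was 0.01 in wild type lung at day 1, beside -0.03 over all genes, and lay between -0.09 and -0.01 in the other comparisons of LPS with control, and rises and falls were mixed. Each comparison was also fitted on its own 6 arrays, without the spread of the other groups. The day 1 count was then 6 in wild type lung (0 higher and 6 lower, beside 18.3% of all genes). In Rag-1 null lung it was 16 (9 higher and 7 lower, beside 35.4%). Of the calls over all genes 47.4% and 44.7% were higher. None of the 9 wild type rises of the full fit passed on those 6 arrays: Hspa4, Hspa5, Hspa9, Hspb1, Dnaja2, Dnajb6, Dnajc5, Dnajc16 and Dnajc21. The larger wild type count thus does not hold without the shared estimate of the spread, for these genes and for all genes alike. Scaling each array by its median instead moved the split in wild type lung at day 4 from 3 higher and 8 lower to 13 higher and 2 lower. That scaling lifted the median of all genes from -0.04 to 0.29 there, and the day 4 directions are relative to the quantile scale.

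**Figure D1:**
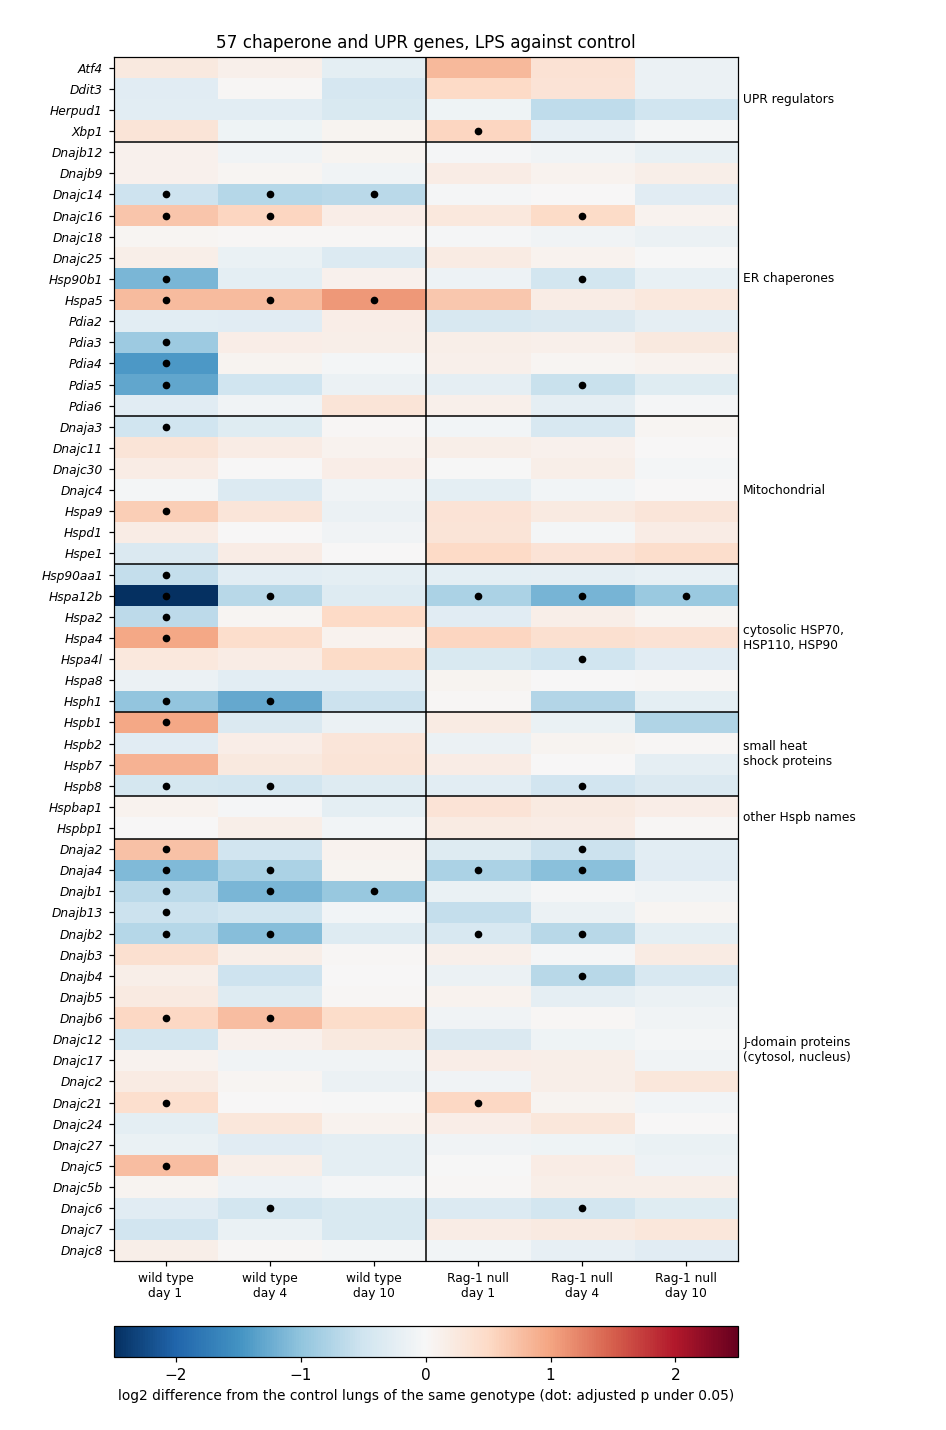
Log2 difference between LPS and control lung of the same genotype (colour) for 57 genes (rows, by role) at 3 days in 2 genotypes (columns); dots mark an adjusted p under 0.05. Hspa12b is the darkest cell, at -2.49 in wild type lung at day 1, and the Pdia3, Pdia4, Pdia5 and Hsp90b1 cells are blue in that column and pale in Rag-1 null lung at day 1. Dots at day 4 depend on scaling for some genes: with median scaling Hspb8 changed sign in wild type lung.

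Promoter sequences are printed for 3 ER genes that carry one stress element, so that Hspa5 and Hsp90b1, which had opposite signs in wild type lung at day 1, can be compared, and for the stretch that Hspe1 and Hspd1 share. RefSeq windows (GRCm38.p6, 250 bases before to 50 bases after the start) were matched by symbol for 46 of the 57 genes. The other 11 had no window and were not searched: Hsp90aa1, Hspa8, Hspa9, Hspb2, Dnajc2, Dnajc5, Dnajc5b, Dnajc11, Dnajc12, Dnajc18 and Dnajc30. The ER stress element, bound by NF-Y and ATF6 and searched as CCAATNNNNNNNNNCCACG on both strands, was found in 3 of the 46, Hspa5, Hsp90b1 and Pdia6, and in 0.137% of 27025 symbols in the table. The heat shock element, searched as GAANNTTCNNGAA or TTCNNGAANNTTC on both strands, was found in 4 of the 46, Hspd1, Hspe1, Hsph1 and Dnajb6, and in 0.662% of all symbols. The amino acid response element TTGCATCA, bound by ATF4 and its partners, was found in Herpud1 and in 1.03% of symbols, and TGACGTGG or TGACGTGA, bound by ATF6 and XBP1, in Hspa5 and Dnajc25 and in 1.22%. A match is a description of the letters and not a site of binding. Capitals mark the matches in these stretches (2 that overlap in Hspe1), all of which end before the start of transcription.
Hspa5, chr2:34771913-34772063, + strand: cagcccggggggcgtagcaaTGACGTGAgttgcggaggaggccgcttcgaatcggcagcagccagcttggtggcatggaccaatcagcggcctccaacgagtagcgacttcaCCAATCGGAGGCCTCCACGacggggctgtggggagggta
Hsp90b1, chr10:86705513-86705676, - strand: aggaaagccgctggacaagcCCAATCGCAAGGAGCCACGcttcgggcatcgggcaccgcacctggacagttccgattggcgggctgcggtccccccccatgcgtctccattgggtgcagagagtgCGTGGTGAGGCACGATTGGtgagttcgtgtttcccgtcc
Pdia6, chr12:17266471-17266529, + strand: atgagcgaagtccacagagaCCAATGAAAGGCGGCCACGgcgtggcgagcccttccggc
Hspe1, chr1:55088039-55088096, + strand: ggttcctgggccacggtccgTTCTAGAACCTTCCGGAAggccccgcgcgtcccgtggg
The last stretch lies between Hspe1 and Hspd1, which are transcribed away from each other, and the same bases on the opposite strand are the Hspd1 match.

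Among the ER chaperones, a set of folding enzymes fell in wild type lung at day 1, was higher again at day 4, and did not pass in Rag-1 null lung at day 1. Of 13 ER chaperone genes 5 were lower and 2 higher in wild type lung at day 1, where 43.5% of all genes passed. In Rag-1 null lung at day 1, 0 of 13 passed, where 19.8% of all genes did.

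Hsp90b1 encodes GRP94, the HSP90 of the ER, which folds integrins and Toll-like receptors. Its log2 signal was 9.53, 9.40 and 9.86 in wild type control lungs and 8.59, 8.32 and 8.45 at day 1, then 9.37, 9.45 and 9.27 at day 4 and 9.66, 9.67 and 9.77 at day 10. All 3 day 1 arrays lay below every other array of the study. The difference at day 1 was -1.15 ± 0.13 (2.22-fold lower, adjusted p 5.92e-07), and from day 1 to day 4 the gene rose by 0.91 ± 0.13 (adjusted p 1.82e-05). Hsp90b1 in Rag-1 null lung was 9.55, 9.78 and 9.67 in control and 9.48, 9.43 and 9.71 at day 1, groups that overlap, and it was lower at day 4 (9.17, 9.03 and 9.46; -0.45 ± 0.13, adjusted p 0.0142; without day 4 replicate 2, -0.35 and adjusted p 0.0943).

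Pdia4 encodes ERp72, a disulfide isomerase that works with BiP. It was 6.89, 7.09 and 7.01 in wild type control lungs and 5.04, 5.96 and 5.72 at day 1, a difference of -1.43 ± 0.23 (2.69-fold lower, adjusted p 3.81e-05). By day 4 it stood at 7.64, 6.85 and 6.67, a rise of 1.48 ± 0.23 from day 1 (adjusted p 3.56e-05), and no day 1 array overlapped control or day 4. The Rag-1 null values were 6.56, 7.14 and 6.87 in control and 6.93, 7.13 and 6.92 at day 1 (0.13 ± 0.23, adjusted p 0.789).

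Pdia5, another disulfide isomerase, was 5.90, 5.80 and 6.18 in wild type control lungs and 4.95, 4.52 and 4.53 at day 1 (-1.30 ± 0.18, adjusted p 6.80e-06). At day 1 only 1 of the 3 wild type arrays was above background, so the size of this fall is uncertain. It rose by 0.80 ± 0.18 from day 1 to day 4 in wild type lung (adjusted p 0.00164). At day 4 it read 5.52, 5.68 and 5.19, still below all control arrays, though that difference did not pass. In Rag-1 null lung it was lower at day 4 (-0.55 ± 0.18, adjusted p 0.0260; without day 4 replicate 3, -0.45 and adjusted p 0.131) and did not pass at day 1, when the arrays read 5.82, 5.72 and 5.46 beside 5.82, 5.90 and 5.96 in control.

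Pdia3 encodes ERp57, the isomerase that joins calnexin and calreticulin in folding glycoproteins. In wild type lung it was 9.34, 9.58 and 9.82 in control, 7.86, 9.23 and 8.95 at day 1 and 9.95, 9.73 and 9.56 at day 4. The difference was -0.90 ± 0.22 (adjusted p 0.00225), and replicate 1, the array that stood apart, was the lowest; without it the difference was -0.49 (adjusted p 0.00632). The rise from day 1 to day 4 was 1.07 ± 0.22 (adjusted p 6.35e-04). Pdia6, a disulfide isomerase that binds BiP, was not past the threshold in wild type lung at day 1 (5.87, 5.08 and 5.52 beside 5.58, 5.85 and 5.91 in control; -0.29 ± 0.19, adjusted p 0.231).

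**Figure D2:**
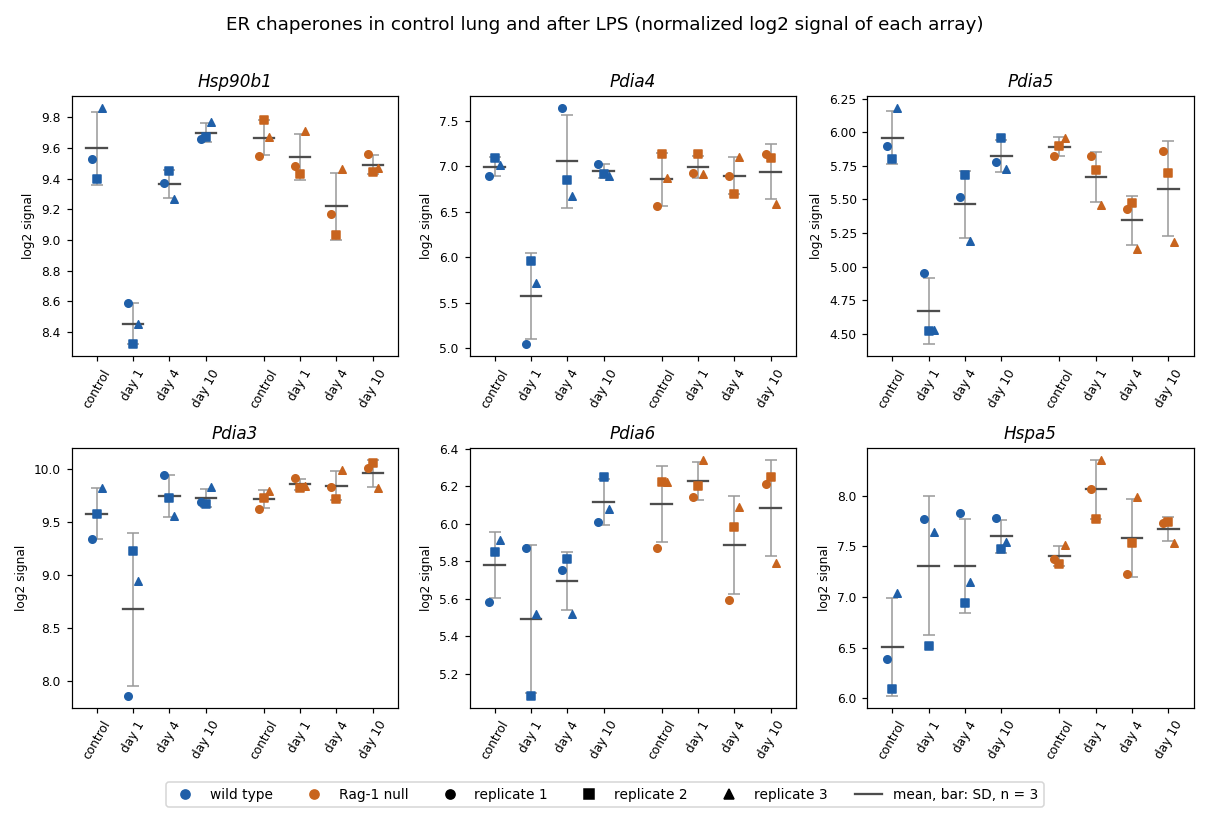
Normalized log2 signal of 6 ER chaperones (y axis, its range differs between panels) on each array, by group (x axis: control and days after LPS); marker shapes are replicates, lines are means and bars are the SD of 3 arrays. Hsp90b1, Pdia4 and Pdia3 are low at day 1 in wild type lung alone among its 4 groups. Pdia5 is lowest there and at day 4 (5.52, 5.68 and 5.19) still lies below the control arrays. Hspa5 is lowest in wild type control lung (6.39, 6.09 and 7.04).

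The response at day 1 differed between genotypes for 6 of the 57 genes (10.5%, beside 9.15% of all genes), tested as the Rag-1 null minus the wild type difference. For the ER genes it was 1.56 ± 0.33 for Pdia4 (adjusted p 0.00422), 1.07 ± 0.26 for Pdia5 (adjusted p 0.0123), 1.04 ± 0.31 for Pdia3 (adjusted p 0.0407) and 1.02 ± 0.19 for Hsp90b1 (adjusted p 0.00169). At day 1 itself these 4 were higher in Rag-1 null than in wild type lung, by 1.42 ± 0.23 for Pdia4, 1.18 ± 0.22 for Pdia3, 1.09 ± 0.13 for Hsp90b1 and 1.00 ± 0.18 for Pdia5 (adjusted p 4.32e-04 or less), and Pdia6 was also higher, by 0.74 ± 0.19 (adjusted p 0.00576). In control lung none of the 5 passed between genotypes, where 1.15% of all genes did. The Pdia3 difference missed the threshold without wild type control replicate 3 (0.92, adjusted p 0.101) and under 5 of 8 other processings, where its adjusted p ranged from 0.0365 to 0.181. The other 3 passed under all 8 and without any single array. Without wild type day 1 replicate 1 the count of genes whose response differed was 11, where 18.8% of all genes passed.

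**Figure D3:**
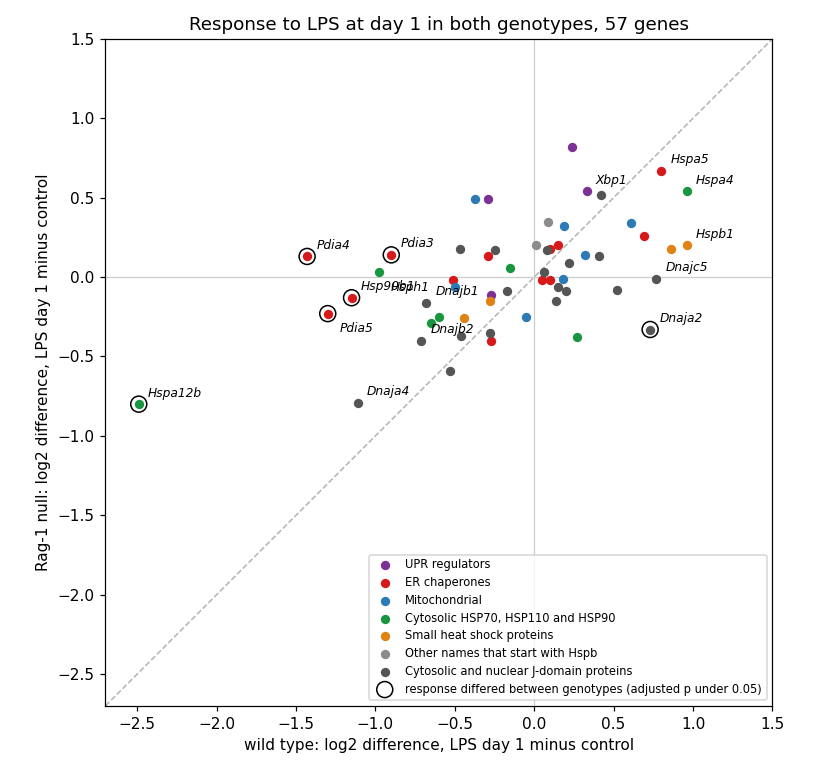
Log2 difference between LPS day 1 and control in wild type lung (x axis) and in Rag-1 null lung (y axis) for 57 genes, coloured by role; circles mark the 6 genes whose response differed between genotypes, and the dashed line is equality. Pdia4, Pdia5, Hsp90b1 and Pdia3 lie at -1.43 to -0.90 on the x axis and close to 0 on the y axis.

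The mRNA of Hspa5 went the other way. It encodes BiP, the HSP70 of the ER and the sensor partner of the unfolded protein response. In wild type control lungs it was 6.39, 6.09 and 7.04, then 7.77, 6.52 and 7.64 at day 1, 7.83, 6.94 and 7.15 at day 4 and 7.78, 7.47 and 7.54 at day 10. It was higher at day 1 by 0.80 ± 0.29 (adjusted p 0.0294), at day 4 by 0.80 ± 0.29 (adjusted p 0.0459) and at day 10 by 1.09 ± 0.29 (adjusted p 0.0476), and only the day 10 arrays did not overlap control. These calls were close to the threshold: without wild type control replicate 1 their adjusted p was 0.0829, 0.121 and 0.113, and without day 1 replicate 1 the day 1 difference was 0.57 (adjusted p 0.122). Hspa5 in Rag-1 null lung was 7.37, 7.32 and 7.51 in control and 8.07, 7.77 and 8.35 at day 1, groups that do not overlap, with a difference of 0.67 ± 0.29 that did not pass (adjusted p 0.122). Hspa5 and Hsp90b1, both with an ER stress element in the sequences printed above, had opposite signs in wild type lung at day 1.

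None of the 4 unfolded protein response regulators passed against control in wild type lung at any day. Of all genes 43.5%, 24.9% and 2.03% did at days 1, 4 and 10. Xbp1, the transcription factor activated when IRE1 splices its mRNA, passed in Rag-1 null lung at day 1: it was 10.14, 10.06 and 10.03 in control and 10.61, 10.79 and 10.46 at day 1 (0.54 ± 0.14, adjusted p 0.00946). Without Rag-1 null day 1 replicate 2 the rise of Xbp1 was 0.46 and missed the threshold (adjusted p 0.0690). It returned to 9.90, 9.93 and 9.81 at day 4, a difference of -0.74 ± 0.14 from day 1 (adjusted p 0.00174) and the only one of the 57 genes past the threshold in that comparison, beside 8.64% of all genes. In wild type lung it read 9.73, 10.03 and 10.22 in control and 10.52, 10.19 and 10.26 at day 1, a difference of 0.33 ± 0.14 that did not pass (adjusted p 0.0717). The probe signal does not tell spliced from unspliced Xbp1. Atf4, the translationally induced factor of the integrated stress response, had the widest spread of the 4: 5.27, 8.94 and 8.54 at day 1 in wild type lung, with replicate 1 the lowest of all 24 arrays and replicate 2 the highest. Its differences at day 1 were 0.24 ± 0.56 in wild type and 0.82 ± 0.56 in Rag-1 null lung. Ddit3, which encodes CHOP, was at -0.29 ± 0.19 and 0.49 ± 0.19 (adjusted p 0.241 and 0.0806), and Herpud1, a factor of ER-associated degradation, at -0.27 ± 0.27 and -0.11 ± 0.27.

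Of 49 listed genes of the unfolded protein response and ER-associated degradation that are not chaperones by name, 32 were measured. In wild type lung at day 1, 7 rose and 9 fell (median of the list -0.06, where 43.5% of all genes passed). Those that fell included Serpinh1, the collagen chaperone HSP47, at -1.82 ± 0.25 (adjusted p 6.23e-06), and Sec61b of the translocon, Creld2, Erp29 and Edem2. Sec61b was 7.12 to 7.73 in wild type control lungs and 5.33, 7.05 and 7.18 at day 1, so its fall (-0.96) rests mainly on the array that stood apart. Those that rose included Ppp1r15a, encoding GADD34, the phosphatase subunit that ends the integrated stress response, at 1.13 ± 0.20 (adjusted p 8.00e-05), and Atf3 at 0.77 ± 0.25 (adjusted p 0.0164). In Rag-1 null lung at day 1, 2 rose and 0 fell, where 19.8% of all genes passed. The day 1 response differed between genotypes for 7 of the 32, beside 9.15% of all genes: Serpinh1 (1.62 ± 0.36), Sec61b (1.38 ± 0.42), Creld2 (1.17 ± 0.26), Erp29 (0.89 ± 0.24) and Edem2 (0.67 ± 0.16) were relatively higher in Rag-1 null lung, and Ppp1r15a (-1.26 ± 0.28) and Mbtps2 (-0.52 ± 0.11) relatively lower.

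Cell type markers moved in the same arrays. Against control at day 1, 43.5% of all genes passed in wild type lung and 19.8% in Rag-1 null lung. In whole tissue, fewer cells of a type and less RNA per cell cannot be told apart. B and plasma cell genes fell in wild type lung at day 1 for 6 of 7 measured. Their summed signal was 488 to 946 in control and 307 to 323 at day 1. In Rag-1 null lung that sum was 177 to 216 at all times, and Cd79a and Fcrl1 were below background. Between genotypes in control lung 0 of 13 ER chaperones passed, where only 1.15% of all genes did. Their differences there ranged from -0.59 to 0.89. Alveolar type 2 markers fell for 8 of 10 in wild type and 7 of 10 in Rag-1 null lung at day 1. Sftpc, the brightest of them, read the same 13.93 on 17 of 24 arrays, all control and wild type day 1 arrays among them, so its change there cannot be read. The sum of the other 9, with Sftpc left out after its values were seen, was 8135 to 11302 in wild type and 10340 to 12618 in Rag-1 null lung at day 1, against 10859 to 12892 and 13792 to 14530 in control. Neutrophil markers rose for 7 of 8 in each genotype at day 1, with sums of 6058 to 14125 in wild type and 11029 to 13847 in Rag-1 null lung, and the wild type control arrays themselves differed, at 856, 7969 and 2935. Monocyte and macrophage genes rose for 2 of 8 and fell for 2 in wild type lung at day 1, and rose for 4 and fell for 1 in Rag-1 null lung, with sums of 1252 to 1670 and 2126 to 2421, against 693 to 789 and 719 to 775 in control. At day 1, 5 of these 8 were higher in Rag-1 null than in wild type lung, beside 14.1% of all genes. The day 1 response passed as different between genotypes for 0 of 8 neutrophil genes, beside 9.15% of all genes. It did for 4 of 7 B and plasma cell genes, a count that carries no further information. Rag-1 null lung lacks mature B cells, so a fall of these genes in wild type lung had no counterpart there. The day 1 response also passed as different for 3 of 8 monocyte and macrophage genes (Adgre1, C1qa and C1qb, relatively higher in Rag-1 null lung). Of 10 alveolar type 2 genes 3 passed, Etv5 and Nkx2-1 as relatively higher and Sftpc as lower. The Sftpc call cannot be read, since its control and wild type day 1 arrays all stood at 13.93. The part of these cells in the chaperone differences was not tested.

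Among the cytosolic HSP70, HSP110 and HSP90 genes, 4 of 7 were lower and 1 higher in wild type lung at day 1. Over all genes 23.9% were lower and 19.6% higher there. Hspa12b, an atypical HSP70 relative expressed in endothelium, had the largest measured difference of the 57 genes. It was 7.57, 7.38 and 7.44 in wild type control lungs, 5.83, 4.45 and 4.64 at day 1, 6.67, 7.02 and 6.63 at day 4 and 7.12, 7.16 and 7.13 at day 10. The day 1 difference was -2.49 ± 0.24 (adjusted p 3.83e-08), and since only 1 of those 3 arrays was above background its size is uncertain. At day 4 it was still lower, at -0.69 ± 0.24 (adjusted p 0.0386), which missed the threshold when any 1 of the 3 control arrays was left out (without replicate 3, adjusted p 0.0759).

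Hspa12b in Rag-1 null lung was 7.96, 7.46 and 7.65 in control, 7.06, 6.81 and 6.79 at day 1, 6.65, 6.70 and 6.21 at day 4 and 6.71, 6.79 and 6.77 at day 10. The differences were -0.80 ± 0.24 at day 1, -1.17 ± 0.24 at day 4 and -0.93 ± 0.24 at day 10 (adjusted p 0.0206, 6.57e-04 and 0.0124), and at each day all 3 LPS arrays lay below all control arrays. By brightest probes it was the one gene of the 57 that passed in Rag-1 null lung at day 10. Without Rag-1 null control replicate 1 the Hspa12b differences at days 1 and 10 were -0.67 and -0.80 and missed the threshold (adjusted p 0.110 and 0.0809), which left 0 genes at day 10, and the day 1 call was also lost without control replicate 3 or day 1 replicate 2 or 3. The day 1 response differed between genotypes by 1.69 ± 0.33 (adjusted p 0.00281), with the deeper fall in wild type lung. Endothelial markers were lower too. In wild type lung at day 1, 5 of 7 measured passed as lower (sum 1067 to 1840, against 2626 to 2817 in control). In Rag-1 null lung 1 of 7 did at day 1 (1917 to 2113, against 2347 to 3012) and 6 of 7 at day 4 (1041 to 1278). Of all genes 43.5%, 19.8% and 30.8% passed in these comparisons, in either direction. The endothelial sum and Hspa12b did not keep step on all arrays. In wild type lung at day 4 the sum was 1553 to 1788, where Hspa12b read 6.67, 7.02 and 6.63. Wild type day 1 replicates 2 and 3 had sums of 1751 and 1840, with Hspa12b at 4.45 and 4.64. Replicate 1 of that group had the lowest sum of the 3, 1067, with Hspa12b at 5.83. Tek and Sox17 also differed between genotypes in the day 1 response. Whether Hspa12b fell beyond the endothelial genes was not tested.

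The day 1 calls of Hsph1, Dnajb1 and Hsp90aa1 were lost without wild type control replicate 3. Hsph1, the HSP110 exchange factor, was 7.49, 8.04 and 9.75 in wild type control lungs and 7.79, 7.46 and 7.09 at day 1, and averaged 7.15 ± 0.23 (SD, n = 3) at day 4. Its differences of -0.98 ± 0.35 at day 1 and -1.28 ± 0.35 at day 4 passed (adjusted p 0.0306 and 0.0110), but on slides 1, 2 and 3 the day 1 difference was 0.30, -0.58 and -2.65. Without control replicate 3 they were -0.32 and -0.62 (adjusted p 0.326 and 0.0762). Hsph1 did not pass in Rag-1 null lung at any day.

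Dnajb1, the heat-inducible J-domain partner of HSP70, was 8.83, 9.27 and 10.21 in wild type control lungs, 8.72, 8.71 and 8.84 at day 1, 8.37, 8.50 and 8.03 at day 4 and 8.01, 8.47 and 9.01 at day 10. It passed as lower at each day, at -0.68 ± 0.24, -1.14 ± 0.24 and -0.94 ± 0.24 (adjusted p 0.0311, 0.00172 and 0.0466). Without control replicate 3 the day 4 difference was -0.75 and still passed (adjusted p 0.0138), whereas days 1 and 10 did not (-0.29 and -0.55, adjusted p 0.293 and 0.199). It was also the only chaperone that passed between genotypes in control lung, 1.06 lower on the log2 scale in Rag-1 null (8.45, 8.26 and 8.43; adjusted p 0.0293, beside 1.15% of all genes), and it missed the threshold there without the same array (-0.67, adjusted p 0.141). Hsp90aa1, the inducible cytosolic HSP90, followed: 8.81, 8.72 and 9.50 in control and 8.45, 8.25 and 8.53 at day 1, a difference of -0.60 ± 0.18 (adjusted p 0.0121) that was -0.35 without that control array (adjusted p 0.119). Its dimmer probe had the opposite sign (0.41 ± 0.22, adjusted p 0.152).

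Hspa8, the constitutive HSC70, did not pass on any of its 3 probes in any comparison. Its brightest probe was 12.23, 12.21 and 13.04 in wild type control lungs, again highest in replicate 3, and 12.64, 12.13 and 12.26 at day 1. Hspa4, an HSP110 relative, rose in wild type lung at day 1, from 5.36, 5.20 and 5.80 to 7.13, 5.75 and 6.35, groups that overlap (0.96 ± 0.23, adjusted p 0.00221), and was at 0.60 without day 1 replicate 1 (adjusted p 0.0129). Its values in Rag-1 null lung, 5.51, 5.30 and 5.76 in control and 6.04, 5.99 and 6.15 at day 1, did not overlap, yet the difference of 0.54 ± 0.23 did not pass (adjusted p 0.124). Hspa2, best known from the testis, fell in wild type lung at day 1 (-0.65 ± 0.17, adjusted p 0.00372) and rose again by 0.69 ± 0.17 to day 4. Hspa4l passed only in Rag-1 null lung at day 4 (-0.49 ± 0.17, adjusted p 0.0329), where it was above background on 1 of 3 arrays.

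**Figure D4:**
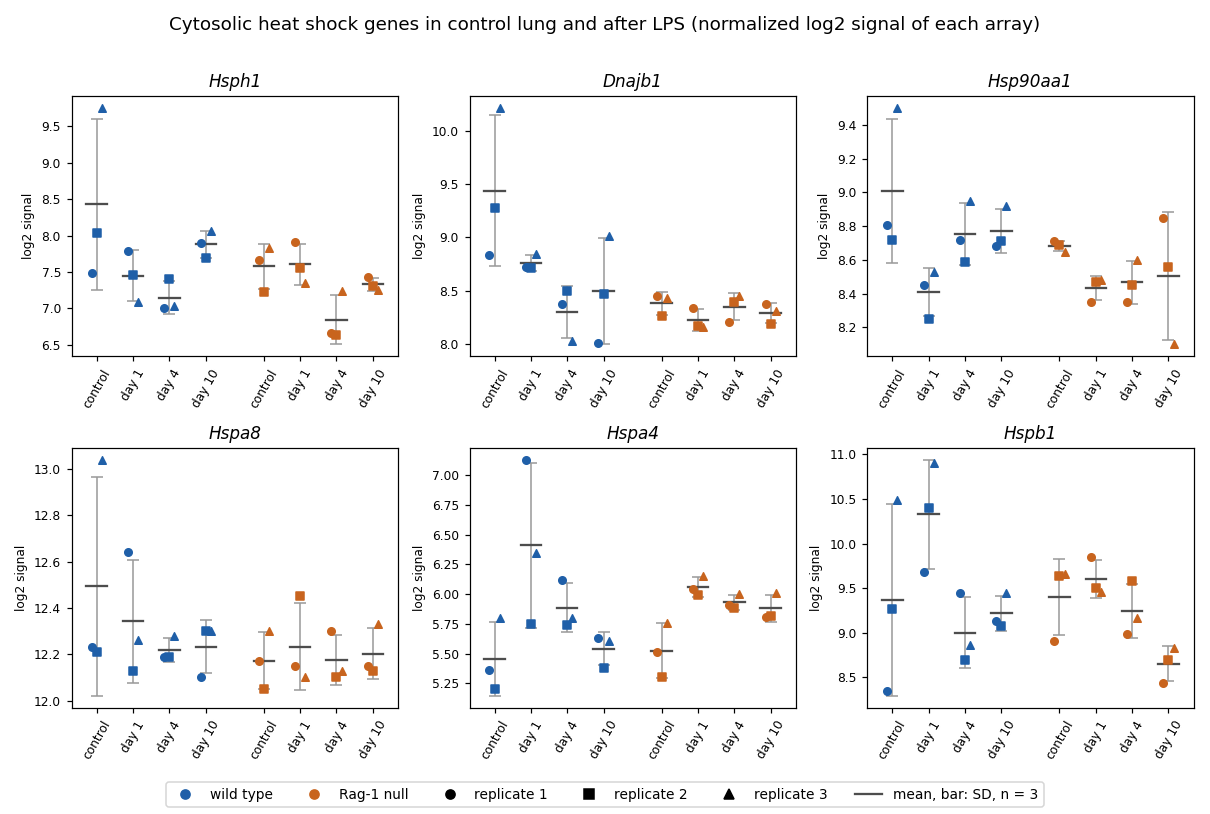
Normalized log2 signal of 6 cytosolic heat shock genes (y axis, its range differs between panels) on each array, by group (x axis); marker shapes are replicates, lines are means and bars are the SD of 3 arrays. The triangle of wild type control (replicate 3) is the highest of all 24 arrays for Hsph1 (9.75), Dnajb1 (10.21), Hsp90aa1 (9.50) and Hspa8 (13.04).

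Small heat shock proteins hold unfolded proteins without ATP. Hspb1, encoding HSP25 in the mouse, was 8.34, 9.27 and 10.49 in wild type control lungs, 9.68, 10.40 and 10.90 at day 1 and 9.45, 8.69 and 8.86 at day 4. The rise at day 1 was 0.96 ± 0.37 (adjusted p 0.0422), which was 1.52 without control replicate 3 and missed the threshold without control replicate 1 (0.45, adjusted p 0.331) or 2 (0.91, adjusted p 0.101). The difference from day 1 to day 4 was -1.33 ± 0.37 (adjusted p 0.00734), and those groups did not overlap. Hspb8, which acts with BAG3 in selective autophagy, passed as lower in wild type lung at days 1 and 4 (-0.44 ± 0.14 and -0.46 ± 0.14, adjusted p 0.0154 and 0.0222) and in Rag-1 null lung at day 4 (-0.48 ± 0.14, adjusted p 0.0133). The wild type calls were lost without control replicate 3 (adjusted p 0.106 and 0.129), and with median scaling the day 4 value was 0.11. Hspb7, a heart muscle protein, read 6.43, 4.70 and 4.96 in wild type lung at day 1 and did not pass (0.86 ± 0.35, adjusted p 0.0576). Heart muscle markers on these arrays summed to 3677, 507 and 769, high on the same array. That sum was also high, at 3559, on wild type control replicate 1, where Hspb7 read 4.99. On the wild type day 10 arrays it was 2662, 3540 and 1976, where Hspb7 read 4.96, 4.86 and 4.65. The part of heart tissue in the Hspb7 signal was not tested. Hspb2, also of muscle, passed only as a rise from day 1 to day 4 in wild type lung (0.44 ± 0.16, adjusted p 0.0347).

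Among 28 measured co-chaperones and heat shock genes outside the name rule, of 29 listed, 4 rose and 8 fell in wild type lung at day 1 (43.5% of all genes passed) and 1 rose and 2 fell in Rag-1 null lung (19.8% of all genes). Fkbp5, an HSP90 co-chaperone induced by glucocorticoids, rose by 2.24 ± 0.31 and 2.67 ± 0.31 (adjusted p 5.11e-06 and 1.62e-06), while its relative Fkbp4 fell, with differences of -1.68 ± 0.16 and -0.89 ± 0.16 (adjusted p 5.28e-08 and 4.63e-04). Cryab, the small heat shock protein alphaB-crystallin, fell, with differences of -0.98 ± 0.19 and -0.60 ± 0.19. Bag3 did not pass in either genotype (0.20 ± 0.20 and -0.05 ± 0.20). The chaperonin subunits Tcp1 and Cct2 rose in wild type lung by 0.52 ± 0.14 and 0.58 ± 0.16.

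Of 20 cytosolic and nuclear J-domain genes, 4 rose and 4 fell in wild type lung at day 1, and 1 rose and 2 fell in Rag-1 null lung, beside 43.5% and 19.8% of all genes. Dnaja4 and Dnajb2 fell in both genotypes at days 1 and 4. Dnaja4, a J-domain partner of cytosolic HSP70, was 6.59, 6.62 and 6.80 in wild type control lungs, 5.28, 5.77 and 5.63 at day 1 and 5.78, 5.94 and 5.92 at day 4, and was back at 6.73, 6.77 and 6.70 by day 10. The differences were -1.11 ± 0.17 at day 1 and -0.79 ± 0.17 at day 4 (adjusted p 1.97e-05 and 0.00179), and in Rag-1 null lung -0.79 ± 0.17 and -1.04 ± 0.17 (adjusted p 0.00204 and 6.97e-05). No LPS array of these 4 groups overlapped its control. With median scaling the wild type day 4 difference was -0.31 and did not pass.

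Dnajb2, a J-domain protein that passes clients to the proteasome, was 7.62, 7.75 and 7.74 in wild type control lungs, 7.28, 6.81 and 6.89 at day 1 and 6.49, 6.78 and 6.65 at day 4. It was lower at both days, with differences of -0.71 ± 0.13 and -1.06 ± 0.13 in wild type lung (adjusted p 1.61e-04 and 4.46e-06) and of -0.40 ± 0.13 and -0.70 ± 0.13 in Rag-1 null lung (adjusted p 0.0379 and 2.79e-04). The Rag-1 null day 1 call of Dnajb2 was lost without any 1 of 5 of its 6 arrays (without day 1 replicate 3, -0.35 and adjusted p 0.134), without the detection filter (adjusted p 0.0774) and with median scaling (adjusted p 0.0671). The step from day 1 to day 4 in wild type lung, -0.35 ± 0.13 (adjusted p 0.0412), was 0.09 with median scaling.

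Dnaja2 responded differently in the genotypes. It was 7.21, 6.46 and 6.91 in wild type control lungs, 7.82, 7.20 and 7.73 at day 1 and 6.16, 6.47 and 6.50 at day 4. Its Rag-1 null values were 7.01, 6.77 and 7.02 in control and 6.54, 6.54 and 6.72 at day 1. It rose by 0.73 ± 0.18 in wild type lung at day 1 (adjusted p 0.00256) and fell from there to day 4 (-1.20 ± 0.18, adjusted p 2.10e-05). At day 1 all 3 Rag-1 null arrays lay below all wild type arrays, and the responses differed by -1.06 ± 0.25 (adjusted p 0.0118), a call that was lost only when the arrays of other days were left out of the fit (adjusted p 0.0689). Dnajc5, the cysteine string protein of exocytosis, rose in wild type lung at day 1 from 8.14, 8.22 and 8.12 to 9.58, 8.85 and 8.36 (0.77 ± 0.21, adjusted p 0.00529; 0.44 without day 1 replicate 1, adjusted p 0.0351), and was lower in Rag-1 null than in wild type lung at that day (-0.93 ± 0.21, adjusted p 0.00226).

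Dnajc2, which encodes a ribosome-associated J-domain protein, had 2 probes that disagreed. The brighter probe did not pass in any comparison and was 5.93, 5.67 and 5.49 in wild type control lungs and 6.34, 5.67 and 5.70 at day 1. The dimmer probe was 4.45, 4.48 and 4.59 in wild type control lungs, below background on all 3, then 5.43, 5.61 and 5.52 at day 1, 5.75, 5.60 and 5.40 at day 4 and 5.06, 5.18 and 5.09 at day 10. It was at least 1.72-fold higher at day 1, at least 1.8-fold at day 4 and at least 1.29-fold at day 10, each bound set against the lowest signal above background on the control arrays (adjusted p 6.55e-07, 1.17e-06 and 0.0124). The dimmer probe rose in Rag-1 null lung by 0.62 ± 0.12, 0.63 ± 0.12 and 0.43 ± 0.12 at days 1, 4 and 10 (adjusted p 7.16e-04, 3.02e-04 and 0.0244). Which transcript either probe reads was not examined.

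**Figure D5:**
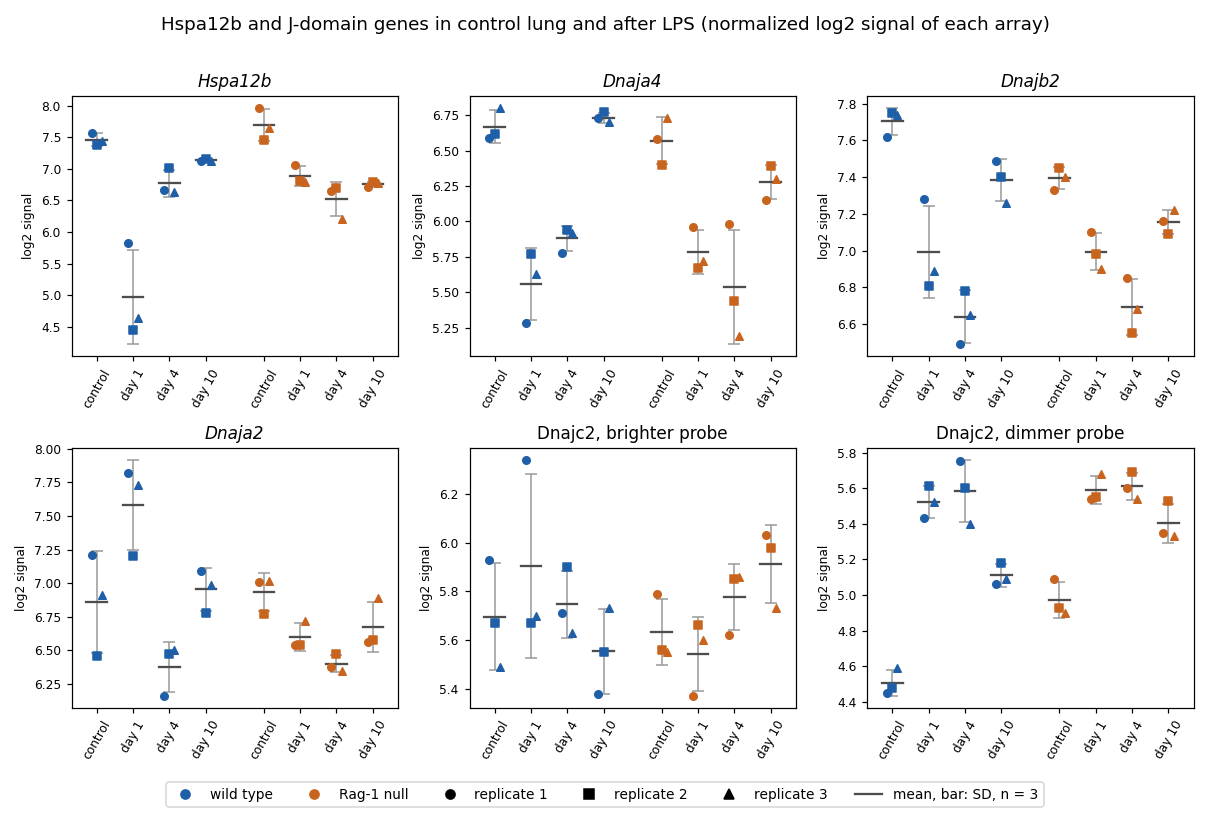
Normalized log2 signal of Hspa12b and of 4 J-domain genes (y axis, its range differs between panels; Dnajc2 with both probes) on each array, by group (x axis); marker shapes are replicates, lines are means and bars are the SD of 3 arrays. Dnaja4 and Dnajb2 are lower at days 1 and 4 in both genotypes on the quantile scale, and the dimmer Dnajc2 probe is lowest in wild type control lung, at 4.45, 4.48 and 4.59.

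Dnajb6, a suppressor of aggregation, rose in wild type lung at days 1 and 4 (0.52 ± 0.17 and 0.77 ± 0.17, adjusted p 0.0179 and 0.00207). Dnajc21, which acts in ribosome assembly, rose at day 1 in both genotypes on its brighter probe (0.42 ± 0.16 and 0.52 ± 0.16, adjusted p 0.0398 and 0.0256), while its dimmer probe fell in wild type lung at day 4 (-0.54 ± 0.18, adjusted p 0.0332). The fall of the brighter probe from day 1 to day 4 in wild type lung was -0.41 ± 0.16 (adjusted p 0.0478) and was 0.04 with median scaling. Dnajc6, the clathrin uncoating factor auxilin, fell at day 4 in wild type lung (-0.46 ± 0.12, adjusted p 0.00951) and was at least 1.22-fold lower in Rag-1 null lung, where no day 4 array was above background. Dnajb13, a protein of ciliary and sperm axonemes, passed as lower in wild type lung at day 1 (-0.53 ± 0.21, adjusted p 0.0474), where 4 of 8 ciliated airway markers also fell (beside 23.9% of all genes) and their sum went from 1122 to 1874 in control to 347 to 783. Its call was lost without wild type control replicate 1 or 3 (adjusted p 0.160 and 0.102), and the wild type groups overlapped. In Rag-1 null lung Dnajb13 read 6.47, 6.12 and 6.45 in control and 5.52, 5.90 and 5.86 at day 1. Those groups did not overlap, yet the difference did not pass. Ciliated markers fell there for 2 of 8, with sums of 1224 to 1590 in control and 617 to 736 at day 1. Of all genes 19.8% passed in that comparison, in either direction. Dnajb4, a heat-inducible J-domain protein, fell in Rag-1 null lung at day 4 (-0.69 ± 0.24, adjusted p 0.0357). From day 1 to day 4 in wild type lung Dnajb5 and Dnajb4 fell (-0.54 ± 0.15 and -0.67 ± 0.24), and Dnajc12 and Dnajc24 rose by 0.56 ± 0.19 and 0.54 ± 0.21; the Dnajb4 difference on slides 1 to 3 was -1.44, 0.04 and -0.60. Of these calls, those of Dnajb6 at day 1, Dnajc21, Dnajc6 in wild type lung, Dnajb4, Dnajc12 and Dnajc24 each missed the threshold without at least 1 array.

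The J-domain proteins of the ER membrane differed among themselves. Dnajc16 rose in wild type lung at days 1 and 4 (0.69 ± 0.16 and 0.54 ± 0.16, adjusted p 0.00137 and 0.0165). It also rose in Rag-1 null lung at day 4 (0.48 ± 0.16, adjusted p 0.0275). Both Dnajc16 calls at day 4 missed the threshold without at least 1 array (up to adjusted p 0.098 in wild type and 0.117 in Rag-1 null lung). The day 1 call held without any single array, but its adjusted p reached 0.113 under other processings. Dnajc14 was lower than control at all 3 days in wild type lung, at -0.51 ± 0.16, -0.71 ± 0.16 and -0.67 ± 0.16 (adjusted p 0.0152, 0.00292 and 0.0307). Of the Dnajc14 calls only that at day 4 held without any single array. For Dnajc14 day 1 was at -0.29 without day 1 replicate 2 (adjusted p 0.129), and day 10 missed without any 1 of 5 of its 6 arrays (up to adjusted p 0.137). Its wild type control values, 5.61, 5.35 and 5.47, were above those of Rag-1 null control lungs, 4.80, 4.96 and 4.90, although that comparison did not pass (-0.59 ± 0.16, adjusted p 0.0771). Dnajb9, the BiP partner ERdj4 and a target of XBP1, did not pass anywhere (4.59, 4.49 and 4.39 in wild type control, 4.83, 4.37 and 4.56 at day 1).

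Of 7 mitochondrial genes, Hspa9 rose and Dnaja3 fell in wild type lung at day 1, where 43.5% of all genes passed. In the other comparisons of LPS with control 0 passed, beside 2.03% to 30.8% of all genes. Hspa9, the mitochondrial HSP70 mortalin, was 7.08, 7.02 and 7.16 in control and 7.65, 7.97 and 7.48 at day 1 (0.61 ± 0.16, adjusted p 0.00383), groups that do not overlap. Dnaja3, its J-domain partner, fell (-0.50 ± 0.16, adjusted p 0.0171), with 0.15, -1.08 and -0.57 on slides 1 to 3. Hspd1 and Hspe1 encode the chaperonin HSP60 and its lid HSP10, from the shared promoter printed above. In wild type lung at day 1 their differences were 0.19 ± 0.17 and -0.37 ± 0.29, and in Rag-1 null lung 0.32 ± 0.17 and 0.49 ± 0.29, none past the threshold. At day 1 Hspe1 was higher in Rag-1 null (7.65, 7.56 and 7.98) than in wild type lung (7.66, 6.10 and 6.74), by 0.89 ± 0.29 (adjusted p 0.0265); replicate 1 showed no difference. The Hspe1 value was 1.31 without wild type day 1 replicate 1, 0.53 without replicate 2 (adjusted p 0.164), and it missed the threshold with only the compared arrays (adjusted p 0.193). Dnaja3 differed in the same direction (0.52 ± 0.16, adjusted p 0.0233).

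Between genotypes most of the calls came at day 1. At that day 13 of the 57 passed (22.8%, 10 higher and 3 lower in Rag-1 null, beside 26.5% of all genes, 14.1% higher and 12.4% lower), and 5 did (beside 6.39% of all genes) when the other arrays were left out of the fit. Besides those given above they were Hspa12b (1.91 ± 0.24), Hspa2 (0.47 ± 0.17), Dnajc24 (0.64 ± 0.21), Dnaja2 (-0.98 ± 0.18) and Dnajc6 (-0.35 ± 0.12). At days 4 and 10, 0 of 57 passed in limma (beside 0.552% and 6.23% of all genes), with 2 and 3 at an unadjusted p under 0.05. When only the compared arrays were fitted 0 and 6 passed, beside 0.0833% and 12.7% of all genes. For the difference in response at days 4 and 10 the limma count was also 0, beside 0% and 1.77% of all genes, with 4 at an unadjusted p under 0.05 at each day. It was 0 and 2 with only the compared arrays, beside 0% and 6.04% of all genes. In wild type lung 17 of the 57 genes differed between day 1 and day 4 (29.8%, 9 higher and 8 lower at day 4, beside 37.7% of all genes, 19.3% higher and 18.4% lower). With median scaling the split was 18 higher and 2 lower, so these directions too are relative to the quantile scale.

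Of 103 calls on single genes and probes, 52 held without any single array and 51 were lost without at least 1. In all, 34 of the 57 genes passed in at least 1 of the 15 comparisons and 23 in none. The 23 were Atf4, Ddit3, Herpud1, Hspa8, Hspd1, Hspb7, Hspbp1, Hspbap1, Pdia2, Dnajb3, Dnajb9, Dnajb12, Dnajc2, Dnajc4, Dnajc5b, Dnajc7, Dnajc8, Dnajc11, Dnajc17, Dnajc18, Dnajc25, Dnajc27 and Dnajc30, by their brightest probes. Their differences between LPS and control ranged from -0.64 (Herpud1, Rag-1 null lung, day 4) to 0.86 (Hspb7, wild type lung, day 1).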

How the data were processed

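Per the labels' protocols, total RNA of whole lung was extracted with Trizol, cleaned, made into biotin-labelled cRNA and read on Illumina beadchips. The deposited scanner table holds a bead signal per probe, a linear intensity, and a detection score, the fraction of negative controls dimmer than the probe. The authors' deposited value table holds log2 values that equal log2 of 1 array's signal minus that array's mean. That equality assigned arrays to samples (largest difference 0.00054; at least 1.42 for any other array), because the title line names another sample for 22 of 24 arrays and the same for 2. Each of 3 slides held 8 arrays, 1 of every group, at the same position, and effects of position and of group cannot be told apart.

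Background correction (from the detection scores), quantile normalization and log2 transformation were done with neqc (offset 16). Quantile normalization limits changes of the brightest probes. A probe was tested if detected on 3 or more arrays, which held for 13544. Symbols came from the platform annotation, and all 64 probes matched RefSeq by Entrez ID with 0 symbols changed. One limma 3.58.1 model (R 4.3.3) of 8 group means gave 15 contrasts (eBayes with trend, two-sided, Benjamini-Hochberg over probes). It was tested on simulated data. Genes named are a fixed set of anchors, up to 12 rises and 12 falls of largest size among the calls of each comparison, and every gene where 5 or fewer passed; other genes that passed or lay near these are also given. The members, roles and lists were chosen with earlier results of these data known. Protein sequences were not used here. The number of arrays limits the precision.

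A replicate number stands for 1 slide. Over 84 pairs of same-numbered arrays the deviations from the group means correlated at -0.493 to 0.372 (median 0.0601, 32 pairs over 0.1). Over 168 pairs with different numbers they did at -0.414 to 0.449 (median -0.0301, 34 pairs over 0.1). The main fit did not pair the samples by number, and the replicate block was fitted as an alternative. Alternatives were no background correction, cyclic loess, median scaling, the value table, no or a stricter detection filter (score over 0.99 in at least 6 arrays), the replicate block, only the compared arrays, and each array left out.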

Additional observations from a re-analysis of the deposited data

Results flagged for a closer look

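The response to LPS at day 1 differed between Rag-1 null and wild type lung by a test of the difference itself for 6 genes. That is 10.5% of the 57, close to the 9.15% of all genes. The Rag-1 null minus wild type differences were 1.69 for Hspa12b, 1.56 for Pdia4, 1.07 for Pdia5, 1.04 for Pdia3 and 1.02 for Hsp90b1, all lower than control in wild type lung at day 1, and -1.06 for Dnaja2, which rose in wild type lung and read lower than control in Rag-1 null lung. The wild type day 1 arrays that enter each of these had the lowest replicate correlations of the study, and endothelial, B cell and alveolar markers moved in them; the part of either in these differences was not tested. The Pdia3 difference was 0.63 without wild type day 1 replicate 1 (adjusted p 0.0238), but missed the threshold without wild type control replicate 3 (0.92, adjusted p 0.101) and under 5 of 8 other processings.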

How the results depend on the processing

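Of 103 calls on single genes and probes, the direction and side of the threshold held for 97 without background correction, 85 with cyclic loess, 82 in the deposited value table, 69 with median scaling, 83 without and 101 with the stricter detection filter, and 53 with only the compared arrays. With the replicate number as a block 102 of the 103 held, and the count of genes between genotypes in control lung was 2 in place of 1, beside 1.26% of all genes. Median scaling turned 3 signs: Hspb8 in wild type lung at day 4 (0.11), and Dnajb2 (0.09) and Dnajc21 (0.04) from day 1 to day 4. It moved the median of all genes in wild type lung from -0.04 to 0.29 at day 4, from 0.00 to 0.21 at day 10 and from -0.01 to 0.26 between day 1 and day 4. The share of calls over all genes that were higher went there from 44% to 88.8%, 46.7% to 88.8% and 51.3% to 83.2%. Between genotypes that share went from 23.6% to 66.4% in control, 53.1% to 76.5% at day 1 and 71.7% to 4.57% at day 4.

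Counts of chaperone genes follow, with the share of all genes that passed in brackets. With only the compared arrays in the fit, which have fewer degrees of freedom, wild type lung had 6 at day 1 (18.3%), 6 at day 4 (20.8%) and 6 from day 1 to day 4 (12.5%). Rag-1 null lung had 16 at day 1 (35.4%), 4 at day 10 (16.6%) and 4 from day 1 to day 4 (12.3%). Between genotypes the counts were 0 in control (0.573%), 5 at day 1 (6.39%) and 6 at day 10 (12.7%), and 2 for the response at day 10 (6.04%). For wild type lung at day 10 the count of 3 (2.03%) became 1 without background correction (1.74%), 1 with loess (1.54%), 1 with the stricter filter (1.29%) and 6 in the value table (9.88%). The value table gave 6 between genotypes in control (6.56%), 2 in Rag-1 null lung from day 1 to day 4 (10.4%), and 5 (9.1%) and 1 (6.18%) for the response at days 4 and 10. Median scaling gave 0 between genotypes in control (1.18%), 1 at day 4 (6.6%) and 4 for the response at day 4 (14.8%). The cause of these shifts was not tested.

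Leaving out 1 array at a time turned no sign, and 2192 of 2472 calls held. The counts ranged in wild type lung from 18 to 28 at day 1, 7 to 13 at day 4, 0 to 4 at day 10 and 11 to 20 from day 1 to day 4, and in Rag-1 null lung from 1 to 10, 6 to 13, 0 to 1 and 1 to 2. Between genotypes they ranged from 0 to 4 in control and 8 to 18 at day 1, and were 0 at days 4 and 10. For the response they ranged from 5 to 11 at day 1 and 0 to 1 at day 10, and were 0 at day 4. Probes near background, such as Pdia5 and Hspa12b at day 1, limit how low a value can be read.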
